A study of Drosophila melanogaster with 8 samples.

Results

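The 36 genes described here encode the machinery that fuses synaptic vesicles with the presynaptic membrane and then retrieves their membrane. They were taken by FlyBase symbol from a list of SNARE, synaptotagmin, vesicle protein and endocytosis genes, and all 36 were found among the 14175 gene identifiers of the deposited files and passed the filter on low counts, which kept 9176 genes. Of these, 16 act in fusion, 4 are other vesicle proteins and 16 act in endocytosis. RNA was measured in ventral nerve cords, freed of the brain lobes, of female Drosophila melanogaster larvae at the wandering stage of the last larval instar. The wit mutant libraries (n = 4) carried witA12 with st1 over witB11 with st1, and the control libraries (n = 4) carried witA12 with st1 over a wild-type chromosome. All 8 libraries share the w1118 background and 1 copy of the witA12, st1 chromosome, so the controls are heterozygous for wit and for st. Each library pooled 25 nerve cords, larvae were grown at 25 °C with 80 per vial, and wandering was the only age given.

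The receptor made from wit is of the BMP type II class. In fly larvae it acts in motor neurons, which receive the ligand Gbb from muscle, and wit mutants are known for small neuromuscular junctions that release little transmitter. At such a synapse, SNARE proteins of the vesicle and the plasma membrane zip together under the control of synaptotagmins and complexin, and the ATPase NSF later pulls them apart. Clathrin, its adaptors and dynamin then recover the vesicle membrane, and endophilin and synaptojanin strip its coat. The comparison asks which of these genes had different RNA levels when wit was mutated, and whether fusion and endocytosis genes differed in that respect.

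Library totals ran from 20923717 to 32740480 estimated counts, and no member had fewer than 354 estimated counts in any library. Levels are in CPM, counts over the scaled library total, and log2 fold changes are wit mutant over control with edgeR's quasi-likelihood test and adjustment over all 9176 genes. Wit mutant replicate 1 had the lowest total and lay farthest from the other wit mutant libraries on the second principal component. The wit transcript was at 86.8 ± 3.97 CPM in wit mutants and 90.6 ± 3.43 CPM in controls (SD, n = 4 each; edgeR adjusted p = 0.371), which does not check the genotype because the labels do not give the lesions. The st transcript had 0.187 ± 0.035 CPM in wit mutants and 0.410 ± 0.034 CPM in controls (edgeR adjusted p = 0.0297). Its values, 0.158 to 0.237 CPM in wit mutants and 0.361 to 0.439 CPM in controls, lay near the limit of the low-count filter. It passed that filter through the controls, so the call carries little weight. The call was lost in 8 of 14 alternatives. Among these were the one with no count filter and those without control replicate 2 or 3 or wit mutant replicate 2, 3 or 4. Neuronal and glial markers marked the tissue as neural, though they do not tell nerve cord from brain. Levels were 1074 ± 40.5 CPM in wit mutants and 1156 ± 8.44 CPM in controls for elav, and 108 ± 4.06 CPM and 113 ± 2.08 CPM in the same order for repo. Of 5 brain lobe markers bsh had at most 2 counts in a wit mutant library and 4 in a control library, while ey was at 26.5 CPM in wit mutants and 24.7 CPM in controls. The summed brain lobe markers ran from 33.7 to 36.4 CPM in wit mutants and from 34.6 to 36.2 CPM in controls, and 1 of the 4 tested fell, the sine oculis gene so (log2 fold change -1.07, 1.07 CPM in wit mutants and 2.27 CPM in controls), a call lost without control replicate 1, 2 or 3 or wit mutant replicate 2 or 3. The summed muscle markers ran from 48.5 to 58.8 CPM in wit mutants and from 45.7 to 52.1 CPM in controls. Most of that sum came from sls, at 40.1 CPM in wit mutants and 34.3 CPM in controls. Of the 7 tested, bt fell and 0 rose, with a median log2 fold change of 0.23 over the list. The bt gene had 5.30 CPM in wit mutants and 8.13 CPM in controls, without overlap (log2 fold change -0.61, edgeR adjusted p = 0.00505).

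Of the 36 members, 15 fell in wit mutants, 0 rose and 21 did not pass the test. Because stnA and stnB share their transcripts and had identical counts in all 8 libraries, these are 14 of 35 separate measurements. Among all genes tested 8.66% fell and 6.12% rose, and among the 6068 genes tested within the CPM range of the members 9.41% fell and 6.06% rose. Among the 1120 genes tested in the middle CPM range of the members, 135 to 377 CPM, 131 (11.7%) fell and 32 rose. The falls were small, with log2 fold changes from -0.34 to -0.11, and 0 members changed 2-fold. The median log2 fold change was -0.11 over the members and 0.01 over all genes tested. In 19 members all wit mutant values lay below all control values, which held for 11.7% of all genes tested, and in 0 members did they lie above, which held for 8.82% of all genes. In the middle CPM range 198 of the 1120 genes (17.7%) lay below and 37 above. Of the separate measurements, 20 had an unadjusted p under 0.05 with a lower and 2 with a higher wit mutant level. The share of all genes tested past that unadjusted threshold was not counted, so these counts cannot be set against a background. The count of members that fell was 9 without control replicate 2, 8 without control replicate 3, 6 without wit mutant replicate 2 and 19 without wit mutant replicate 1. In the same runs, in that order, 524, 540, 557 and 1124 of all genes fell, against 795 with all libraries. In bulk tissue, fewer cells of a type and less RNA per cell cannot be told apart.

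**Figure D1:**
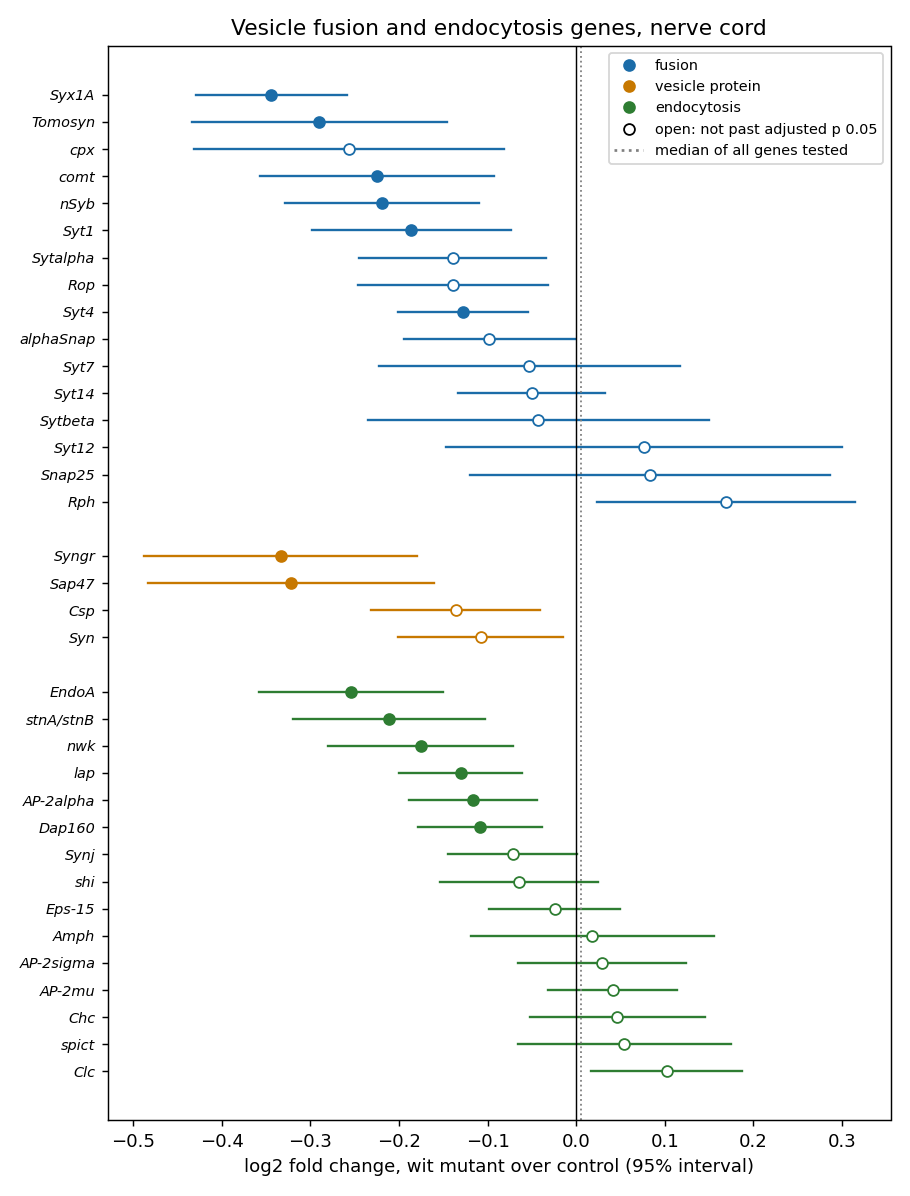
Log2 fold change of each member, wit mutant over control, with its 95% interval from the quasi-likelihood fit (n = 4 libraries each). Filled points passed an adjusted p of 0.05, open points did not, and stnA and stnB are drawn once; the filled points lie between -0.34 for Syx1A and -0.11 for Dap160, all left of 0.

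Of the 3 genes of the core SNARE complex 2 fell. Syx1A (FBgn0013343, chromosome 3R, 24101600 to 24105763), the syntaxin of the presynaptic plasma membrane, had 108, 109, 115 and 108 CPM in wit mutant replicates 1 to 4, against 136, 139, 137 and 148 CPM in control replicates 1 to 4. The genotypes did not overlap, and Syx1A fell by 21.2% (log2 fold change -0.34, SE 0.04, edgeR adjusted p = 0.000116), the largest fall among the members. Of its annotated exonic bases 10.7% are shared with eIF4EHP on the same strand, and how estimated counts were split between the pair is uncertain. The eIF4EHP values were 199 ± 22.6 CPM in wit mutants and 254 ± 1.63 CPM in controls, a log2 fold change of -0.35, and the part of this in the Syx1A result was not tested.

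The vesicle SNARE nSyb (FBgn0013342, 3L, 1630348 to 1637752), neuronal synaptobrevin, had 889, 821, 921 and 792 CPM in wit mutants, against 1017, 1001, 1002 and 964 CPM in controls. All wit mutant values were again the lower ones, and nSyb fell by 14.1% (log2 fold change -0.22, SE 0.05, edgeR adjusted p = 0.0136). Snap25 (FBgn0011288, 3L, 24074180 to 24299205), the other SNARE of the plasma membrane, had 251, 221, 217 and 178 CPM in wit mutants, against 209, 209, 208 and 192 CPM in controls. Its genotypes overlapped, with the wit mutant libraries on both sides of the controls, and its log2 fold change of 0.08 did not pass the test (edgeR adjusted p = 0.581, 95% interval -0.12 to 0.29). Ratios between genes of a library do not depend on how libraries are scaled. The ratio of Syx1A to Snap25 counts was 0.516 ± 0.072 in wit mutants and 0.686 ± 0.0567 in controls (SD, n = 4 each), without overlap. That of nSyb to Snap25 was 3.99 ± 0.428 in wit mutants and 4.87 ± 0.0993 in controls, also without overlap. Both pairs were picked with their values in view, and the ratios were not tested.

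**Figure D2:**
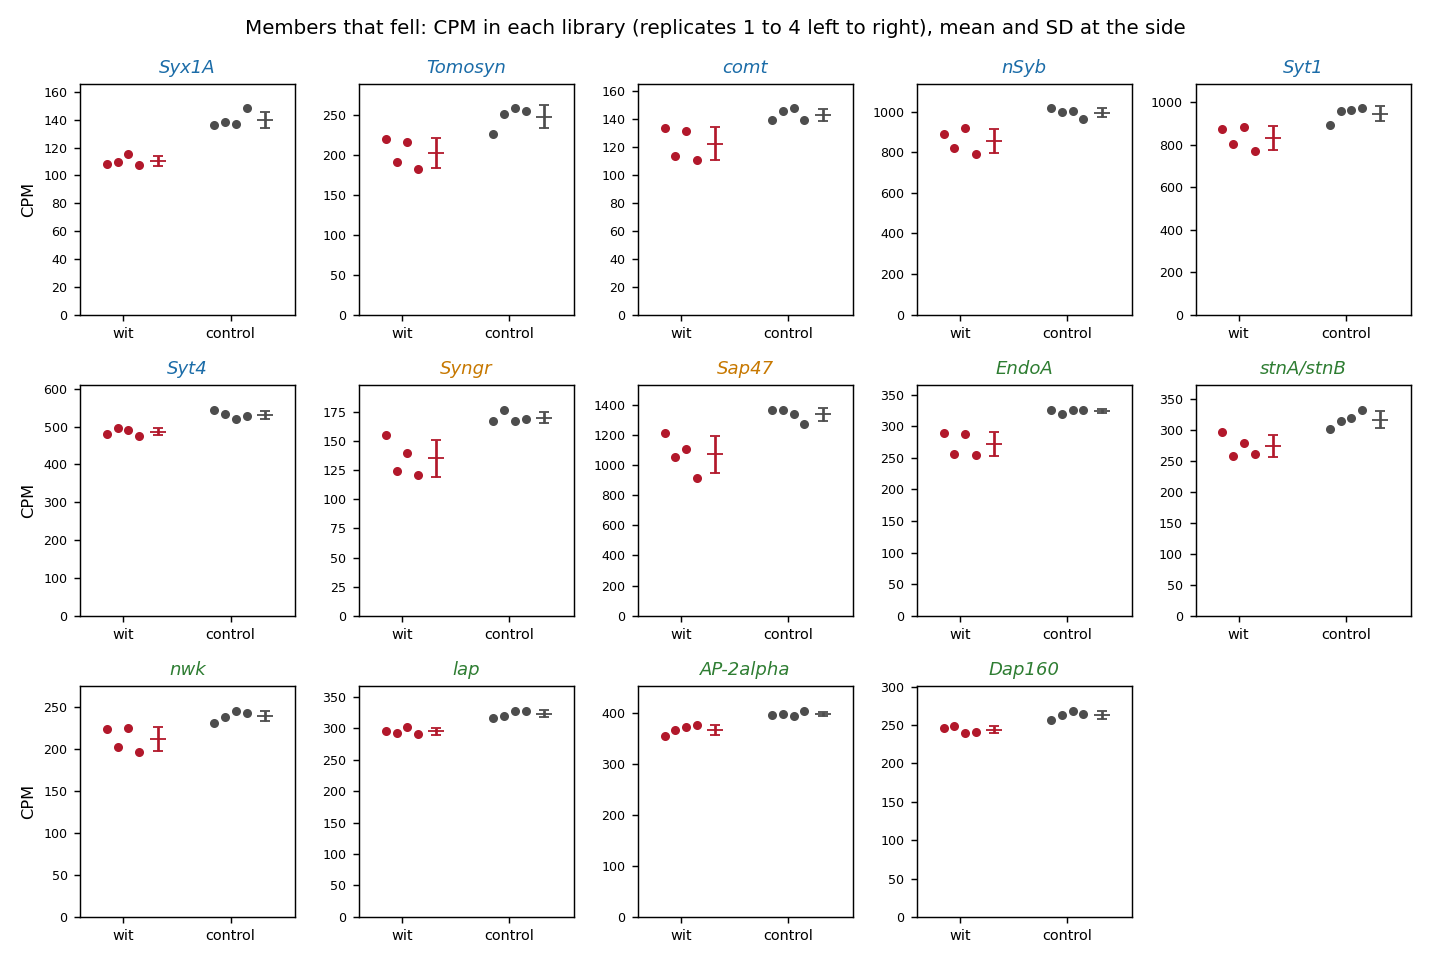
CPM of the members that fell, in each of the 4 wit mutant and 4 control libraries, with points for replicates 1 to 4 from left to right and the mean ± SD beside them; gene names are blue for fusion, orange for vesicle protein and green for endocytosis genes. Every panel starts at 0 and shows all wit mutant values below all control values.

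Of 5 genes whose products bind or recycle the SNARE complex 2 fell. Tomosyn, which binds syntaxin and inhibits release, had 221, 191, 217 and 183 CPM in wit mutants, against 227, 251, 258 and 255 CPM in controls. The groups did not overlap, although control replicate 1 was close to the wit mutant range, and Tomosyn fell by 18.2% (log2 fold change -0.29, SE 0.07, edgeR adjusted p = 0.0139). That call was lost without wit mutant replicate 2 and with the replicate number as a block, where the numbers did not pair the libraries (adjusted p up to 0.059; 0.00055 at the lowest over 14 alternatives). The NSF gene comt, whose product takes spent SNARE complexes apart, had 134, 114, 131 and 111 CPM in wit mutants, against 140, 146, 148 and 139 CPM in controls. Without overlap between genotypes, it fell by 14.4% (log2 fold change -0.22, SE 0.06, edgeR adjusted p = 0.0302), a call lost without any 1 control replicate or without wit mutant replicate 2 or 4 (0.00417 to 0.0914).

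Complexin (cpx), which clamps and then promotes fusion, did not pass the test despite a log2 fold change of -0.26 (SE 0.08, edgeR adjusted p = 0.0539). It had 1059, 890, 1002 and 797 CPM in wit mutants, against 1055, 1149, 1127 and 1146 CPM in controls. Wit mutant replicate 1 overlapped the controls, and without that library cpx passed (edgeR adjusted p = 0.00603), as it did with DESeq2 and limma-voom. Rop, the Munc18 protein that binds syntaxin, had 260, 225, 256 and 228 CPM in wit mutants, against 270, 269, 265 and 263 CPM in controls. The Rop values did not overlap but missed the threshold (log2 fold change -0.14, edgeR adjusted p = 0.0817; 0.0131 without wit mutant replicate 1 and 0.218 at the highest over the alternatives). Rop lies 64642 bases from wit, nearer than any other member. The NSF adaptor gene alphaSnap had a log2 fold change of -0.10 and did not pass either (edgeR adjusted p = 0.159).

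Of the 7 synaptotagmin genes 2 fell and 5 did not pass the test. Syt1 (FBgn0004242, 2L, 2772327 to 2799979), the calcium sensor of fast release, had 872, 801, 882 and 769 CPM in wit mutants, against 892, 956, 963 and 970 CPM in controls. The gap between the highest wit mutant and the lowest control value was small, and Syt1 fell by 12.1% (log2 fold change -0.19, SE 0.05, edgeR adjusted p = 0.0326). Syt4, a synaptotagmin also known for retrograde release from larval muscle, had 481, 498, 490 and 476 CPM in wit mutants, against 545, 533, 520 and 528 CPM in controls. Syt4 varied little within each genotype and fell by 8.48% (log2 fold change -0.13, SE 0.03, edgeR adjusted p = 0.0267). The Syt1 call was lost without control replicate 2, 3 or 4 or wit mutant replicate 2 or 4 (edgeR adjusted p from 0.00548 to 0.102 over the alternatives). The Syt4 call was lost without control replicate 1, 2 or 3 or wit mutant replicate 3 or 4 (0.000182 to 0.0782), and both were lost with the replicate block.

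The remaining synaptotagmins had log2 fold changes between -0.14 for Sytalpha and 0.08 for Syt12. Sytalpha had 26.9, 28.2, 26.1 and 29.9 CPM in wit mutants, against 31.5, 31.2, 30.3 and 29.6 CPM in controls, with overlap through wit mutant replicate 4 (edgeR adjusted p = 0.0764; 0.0319 without that library). Syt7, a slower calcium sensor, and Sytbeta had 95% intervals of -0.22 to 0.12 and -0.23 to 0.15, wide enough to hold falls as large as that of Syt1. Sytbeta ran from 133 to 179 CPM over wit mutants and from 158 to 180 CPM over controls, with overlap. Syt14 was measured more tightly, with an interval of -0.13 to 0.03 on the log2 scale. Syt12 was the least abundant member by mean CPM, with 12.3 to 17.8 CPM in wit mutants and 14.2 to 15.9 CPM in controls. Rph, the rabphilin that binds Rab3 on vesicles, was the member with the highest log2 fold change, 0.17 (SE 0.07, edgeR adjusted p = 0.114). It had 74.7, 92.1, 88.4 and 96.2 CPM in wit mutants, against 79.7, 75.6, 79.5 and 78.3 CPM in controls, so that 3 wit mutant libraries were above and 1 below all controls. Without wit mutant replicate 1, the low library, Rph passed the test (edgeR adjusted p = 0.000728, and 0.247 at the highest over the alternatives).

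Of the 4 other vesicle protein genes 2 fell. Sap47, whose product is abundant at nerve terminals and interacts with synapsin, had 1212, 1053, 1103 and 912 CPM in wit mutants, against 1365, 1368, 1341 and 1274 CPM in controls. Syngr, the vesicle membrane protein synaptogyrin, had 155, 125, 140 and 121 CPM in wit mutants, against 167, 177, 168 and 169 CPM in controls. In both genes the wit mutant libraries were spread more widely than the controls yet stayed below them. Sap47 fell with a log2 fold change of -0.32 (SE 0.07, edgeR adjusted p = 0.0142) and Syngr with -0.33 (SE 0.07, edgeR adjusted p = 0.0103). The synapsin gene Syn and the chaperone gene Csp, whose product keeps SNAP-25 folded in mammals, had -0.11 and -0.14 (edgeR adjusted p = 0.112 and 0.0576), and both passed without wit mutant replicate 1 (0.0245 and 0.0128). Csp had 378, 352, 371 and 329 CPM in wit mutants, against 391, 397, 393 and 390 CPM in controls, with no overlap.

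Among endocytosis genes 7 of 16 fell, or 6 of 15 with the stoned genes counted once. EndoA (FBgn0038659, 3R, 18906609 to 18910755), the endophilin that helps bend and uncoat vesicle membrane, had 290, 257, 288 and 254 CPM in wit mutants, against 327, 320, 326 and 326 CPM in controls. The controls were nearly equal and every wit mutant value lay below them, and EndoA fell by 16.2% (log2 fold change -0.25, SE 0.05, edgeR adjusted p = 0.00431). The stoned locus (X, 22980722 to 23004648), 1 transcription unit for the adaptor proteins stnA and stnB, had 297, 258, 278 and 262 CPM in wit mutants, against 301, 314, 319 and 333 CPM in controls. Wit mutant replicate 1 came close to control replicate 1 without reaching it. The locus fell by 13.6% (log2 fold change -0.21, SE 0.05, edgeR adjusted p = 0.015) and lost the call without wit mutant replicate 2 or with the replicate block (0.000915 to 0.0589).

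Of 6 genes of the clathrin coat and its adaptors 2 fell. The AP180 adaptor gene lap had 295, 292, 302 and 290 CPM in wit mutants, against 317, 319, 327 and 328 CPM in controls. AP-2alpha, the large subunit of the AP-2 adaptor that binds membrane and accessory proteins, had 355, 366, 373 and 376 CPM in wit mutants, against 396, 398, 394 and 405 CPM in controls. Replicates of lap and AP-2alpha lay close together, and lap fell by 8.65% and AP-2alpha fell by 7.73% (log2 fold changes -0.13 and -0.12, SE 0.03 each, edgeR adjusted p = 0.0185 and 0.0365). The lap call was lost without control replicate 3 or wit mutant replicate 2 (0.000372 to 0.0679). That of AP-2alpha was lost with the replicate block, with no count filter, without any 1 control replicate, or without wit mutant replicate 2 or 3 (0.00236 to 0.0965). The heavy and light chain genes Chc and Clc and the other AP-2 subunit genes AP-2mu and AP-2sigma did not pass, with log2 fold changes of 0.05, 0.10, 0.04 and 0.03. Their 95% intervals began at -0.05, 0.02, -0.03 and -0.07, so for each of them a fall of the size fitted for AP-2alpha lay outside the interval. AP-2mu had 159, 159, 156 and 165 CPM in wit mutants, against 159, 158, 153 and 151 CPM in controls. The ratio of AP-2alpha to AP-2mu counts, chosen after the values were seen, was 2.30 ± 0.0619 in wit mutants and 2.57 ± 0.0842 in controls (SD, n = 4 each), without overlap. The ratio to AP-2sigma did overlap, at 4.07 ± 0.250 in wit mutants and 4.50 ± 0.231 in controls. Clc shares 8.68% of its exonic bases with CG6951, which had a log2 fold change of 0.01.

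Of 8 genes of membrane scission, uncoating and scaffolding 3 fell, namely EndoA, Dap160 and nwk. Dynamin (shi), which cuts the vesicle neck, had 525, 490, 504 and 465 CPM in wit mutants, against 510, 521, 518 and 526 CPM in controls. Its values overlapped and its 95% interval was -0.15 to 0.02 (log2 fold change -0.06, edgeR adjusted p = 0.32). The phosphatase gene Synj, a partner of EndoA in uncoating, had 133, 132, 137 and 134 CPM in wit mutants, against 143, 137, 146 and 138 CPM in controls. Synj did not overlap between genotypes but missed the threshold (log2 fold change -0.07, edgeR adjusted p = 0.174). The ratio of EndoA to shi counts was 0.548 ± 0.0199 in wit mutants and 0.626 ± 0.0118 in controls, and that of EndoA to Synj was 2.03 ± 0.132 in wit mutants and 2.30 ± 0.0573 in controls, both without overlap and chosen after the values were seen. Eps-15 and Amph, whose product mainly shapes muscle membranes in flies, had log2 fold changes of -0.02 and 0.02, with 95% intervals of -0.10 to 0.05 and -0.12 to 0.16.

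The scaffold gene Dap160, the fly intersectin, had 247, 249, 240 and 242 CPM in wit mutants, against 256, 263, 269 and 265 CPM in controls. It fell by 7.28%, the smallest fall that passed (log2 fold change -0.11, SE 0.03, edgeR adjusted p = 0.0409). Its binding partner nwk, an F-BAR protein known to restrain BMP signalling at the neuromuscular junction, had 224, 203, 226 and 197 CPM in wit mutants, against 232, 238, 246 and 243 CPM in controls. The genotypes did not overlap for either gene, and nwk fell by 11.4% (log2 fold change -0.18, SE 0.05, edgeR adjusted p = 0.0307). Both calls were lost with the replicate block and without control replicate 2, 3 or 4 or wit mutant replicate 2 or 4, and that of Dap160 also without wit mutant replicate 3 and with no count filter (0.008 to 0.129 for Dap160 and 0.00708 to 0.0987 for nwk). The gene spict encodes an endosomal protein that, like nwk, restrains BMP signalling. It had 18.2, 18.5, 17.9 and 20.4 CPM in wit mutants, against 18.7, 17.1, 18.3 and 18.2 CPM in controls, and did not pass the test (log2 fold change 0.05, edgeR adjusted p = 0.547).

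**Figure D3:**
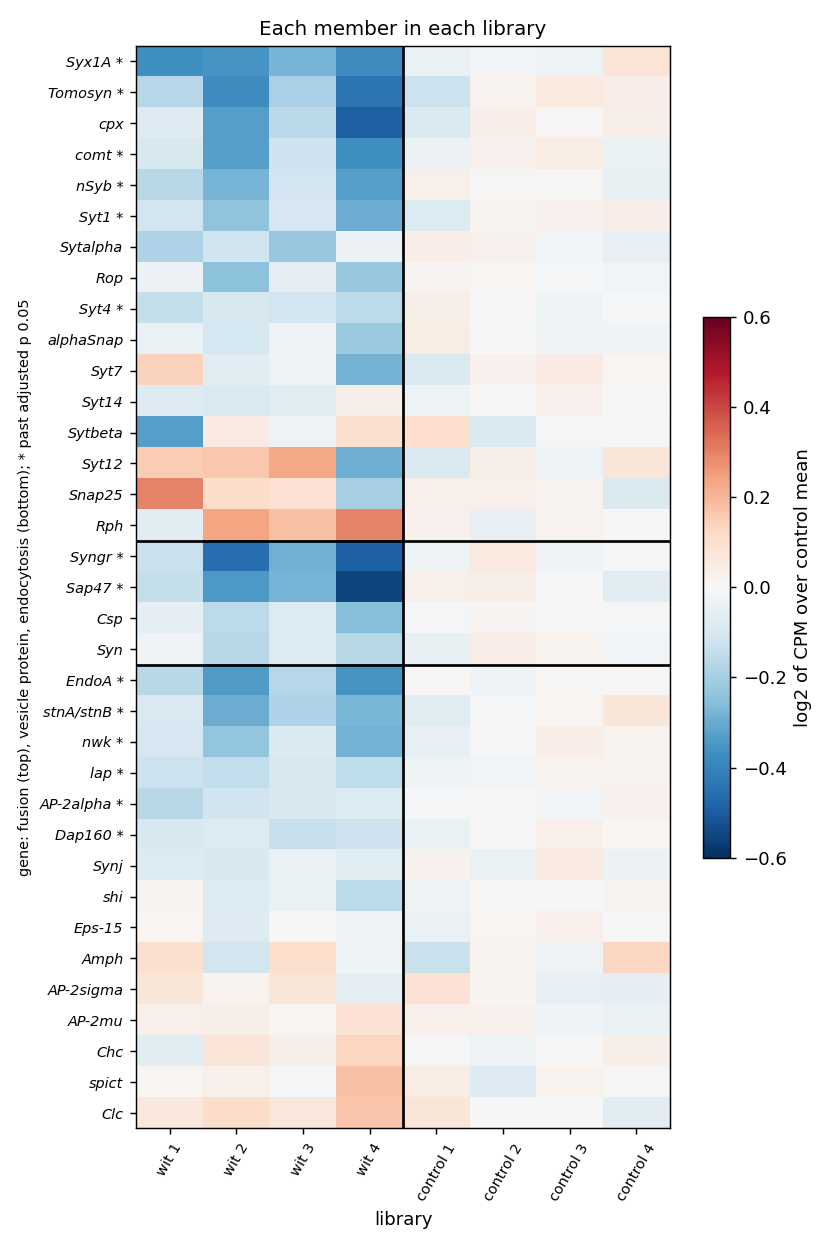
Log2 of each member's CPM over its control mean, in wit mutant replicates 1 to 4 and control replicates 1 to 4, with fusion, vesicle protein and endocytosis genes in blocks from top to bottom and an asterisk at members past an adjusted p of 0.05. Blue is below and red above the control mean; wit mutant replicate 4 is the lowest wit mutant library for 11 of the 14 separate measurements that fell.

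Of the fusion genes 6 of 16 fell, of the vesicle protein genes 2 of 4 and of the endocytosis genes 7 of 16, and 0 rose in any of the 3 groups. Among all genes tested 8.66% fell and 6.12% rose, and 11.7% fell among those in the middle CPM range of the members. The median log2 fold change was -0.13 over fusion genes, -0.23 over vesicle protein genes and -0.07 over endocytosis genes. With the stoned genes counted once, 6 of 15 endocytosis genes fell and their median was -0.06. Divided by elav of the same library, the median log2 ratio was -0.03 over fusion, -0.12 over vesicle protein and 0.04 over endocytosis genes. Over all genes tested that median was 0.11, against a median log2 fold change of 0.01 before the division. The sign of the endocytosis median depended on the scaling, while it lay below the median of all genes tested on both scales. Relative to the control mean of each gene, the fusion genes had a median of -0.09, -0.11, -0.09 and -0.26 in wit mutant replicates 1 to 4 on the log2 scale. The endocytosis genes had -0.07, -0.09, -0.04 and -0.08 in the same libraries, so the fusion and endocytosis genes lay farthest apart in wit mutant replicate 4. Control libraries lay between -0.02 and 0.02 for both groups. No test of the difference between the groups was made, since the members were chosen with results of these data known. The fusion count was 3 without control replicate 2 or 3 or wit mutant replicate 2 and 3 with the replicate block. The endocytosis count was 4, 3 and 4 without control replicates 2, 3 and 4, 1 without wit mutant replicate 2 and 2 with the block, and the vesicle protein count was 4 without wit mutant replicate 1. Of all genes 524, 540 and 585 fell without control replicates 2, 3 and 4, against 795 with all libraries. That number was 557 without wit mutant replicate 2, 1124 without wit mutant replicate 1 and 553 with the block.

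The coefficient of variation was larger in wit mutants for 27 of the 35 separate measurements, with a median of 6.07% in wit mutants and 2.74% in controls, while it was larger for 64.4% of all genes tested. Over all genes tested the medians were 6.07% in wit mutants and 4.69% in controls, so the wit mutant median of the members was that of all genes and their control median was lower. The members were more abundant, with a median level of 217 CPM against 31.9 CPM over all genes tested. Variation in genes of like abundance was not computed, so these medians do not show whether the members varied more than such genes. Wit mutant replicate 4 was the lowest of its group for 20 of the 35, against 28.5% of all genes tested. For 9 of the 35, among them Rph, Chc and Clc, replicate 4 was the highest instead, a share near the 2415 of 9176 over all genes tested. In the same library the summed neuronal markers and the summed glial markers, at 7237 and 1514 CPM, were also the lowest of all 8 libraries, and their part in these values was not tested.

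The other genes of these pathways were counted in the same way. Of 17 other release and priming genes 4 fell and 0 rose, with a median log2 fold change of -0.11. These were the active zone genes Rbp (-0.48) and brp (-0.18), the vesicle GTPase gene Rab3 (-0.30) and Snap24 (-0.28), a SNAP-25 relative whose mean was 63.0 CPM in wit mutants and 76.5 CPM in controls. The brp call was lost with the replicate block and without control replicate 2, 3 or 4 or wit mutant replicate 2 or 4. Of 21 other endocytosis and recycling genes 1 fell and 1 rose, with a median of 0.03. The fall was in sky, a Rab GTPase-activating protein of vesicle recycling, at 163 ± 2.20 CPM in wit mutants and 196 ± 8.25 CPM in controls (edgeR adjusted p = 0.000544). The rise was in the sorting nexin gene Snx16 (0.26, edgeR adjusted p = 0.0198), lost with the replicate block and without control replicate 2 or 3.

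Of 20 measured SNARE genes of other membranes 0 fell and 1 rose, with a median of 0.10. The Golgi SNARE gene Bet1 rose to 16.5 ± 0.856 CPM in wit mutants, against 13.9 ± 0.460 CPM in controls (log2 fold change 0.25, edgeR adjusted p = 0.0153), a call lost without control replicate 2. Of 4 measured vesicular transporter genes 2 fell, namely VGlut, which fills glutamate vesicles of motor neurons, and Vmat for monoamines (-0.67 and -0.51). VGAT and prt had -0.09 and -0.02 and did not pass.

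**Figure D4:**
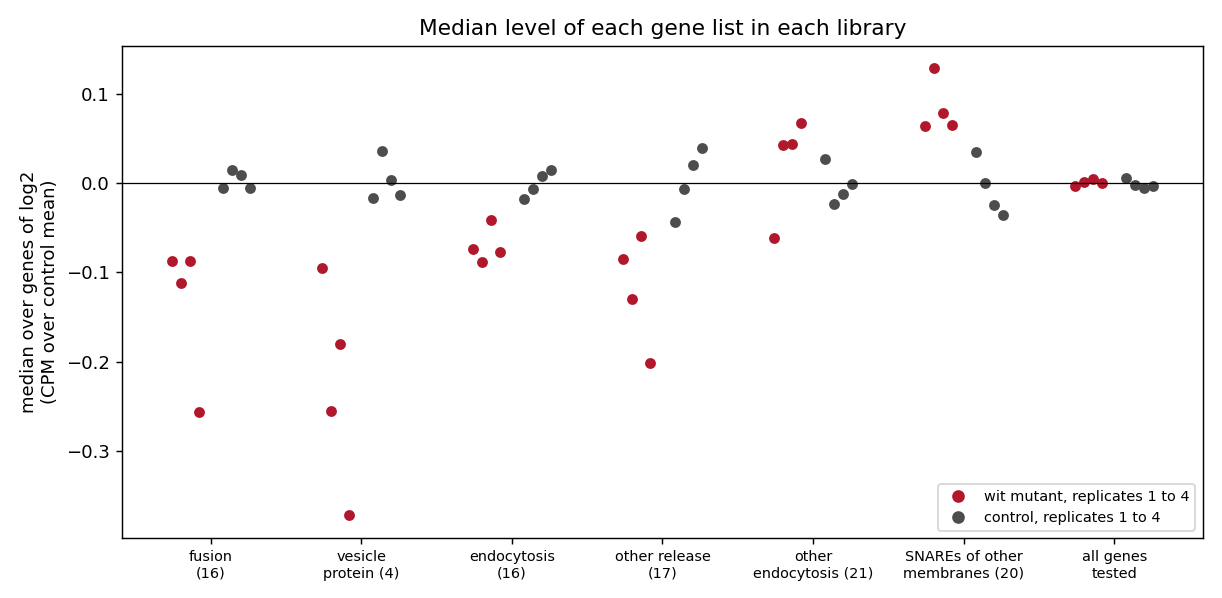
Median over each gene list of log2 CPM over the control mean, for the 4 wit mutant libraries and the 4 control libraries; numbers in brackets are genes. All 4 wit mutant medians lie below all control medians for fusion, vesicle protein, endocytosis and other release genes. They lie above them for SNAREs of other membranes, and those of all genes tested lie at 0.

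Of 9 measured general neuronal markers 3 fell and 1 rose, and the test was not passed by the other 5. The falls were in Appl (-0.19), futsch (-0.54) and fne (-0.16), and the rise was in the non-coding RNA noe (0.57). The Appl call was lost without control replicate 3, and those of futsch and fne without control replicate 2, 3 or 4 or wit mutant replicate 4, among others. The elav transcript had a log2 fold change of -0.11 (edgeR adjusted p = 0.0918) and did not overlap between genotypes. The summed markers ran from 7237 to 8274 CPM in wit mutants and from 8690 to 9372 CPM in controls, and none was at 0. Divided by elav of the same library, 3 of 36 members lay below all controls without overlap, namely Syx1A, Syngr and EndoA, a share of 8.33% against 4.64% of all genes tested. Another 3 lay above all controls, namely Clc, AP-2mu and spict, where 26.4% of all genes tested did. On that scale the median log2 ratio was 0.11 over all genes tested and -0.0047 over the members. Of 11 glial markers 5 fell and 0 rose, and their sum ran from 1514 to 1992 CPM in wit mutants and from 2244 to 2295 CPM in controls. The glial falls were wrapper (-0.38), Nrx-IV (-0.16), Eaat1 (-0.21), Gs2 and Gat, and those of Gs2 and Gat were lost without any 1 control replicate or without wit mutant replicate 2 or 3, and that of Eaat1 without control replicate 2 or 3 or wit mutant replicate 2 or 4. The summed fat body and hemocyte markers ran from 641.6 to 674.9 CPM in wit mutants and from 738.3 to 897.6 CPM in controls, most of it from apolpp, at 583 CPM in wit mutants and 741 CPM in controls. Of the 8 tested, apolpp and PPO2 fell and 0 rose, with a median log2 fold change of -0.05 over the list, and the PPO2 call was lost in 10 of 14 alternatives, among them those without any 1 wit mutant replicate or without control replicate 1, 3 or 4. Of 5 imaginal disc markers vn (-1.18), ptc (-0.24) and sd (-0.11) fell and vg (0.18) rose, where the calls of sd and vg were lost without control replicate 2, 3 or 4 or wit mutant replicate 2 or 3, among others. The summed disc markers ran from 249 to 258.5 CPM in wit mutants and from 270.0 to 288 CPM in controls, and 0 of 8 neuroblast markers passed the test. The part of neuronal, glial and other cell content in the falls was not tested.

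**Figure D5:**
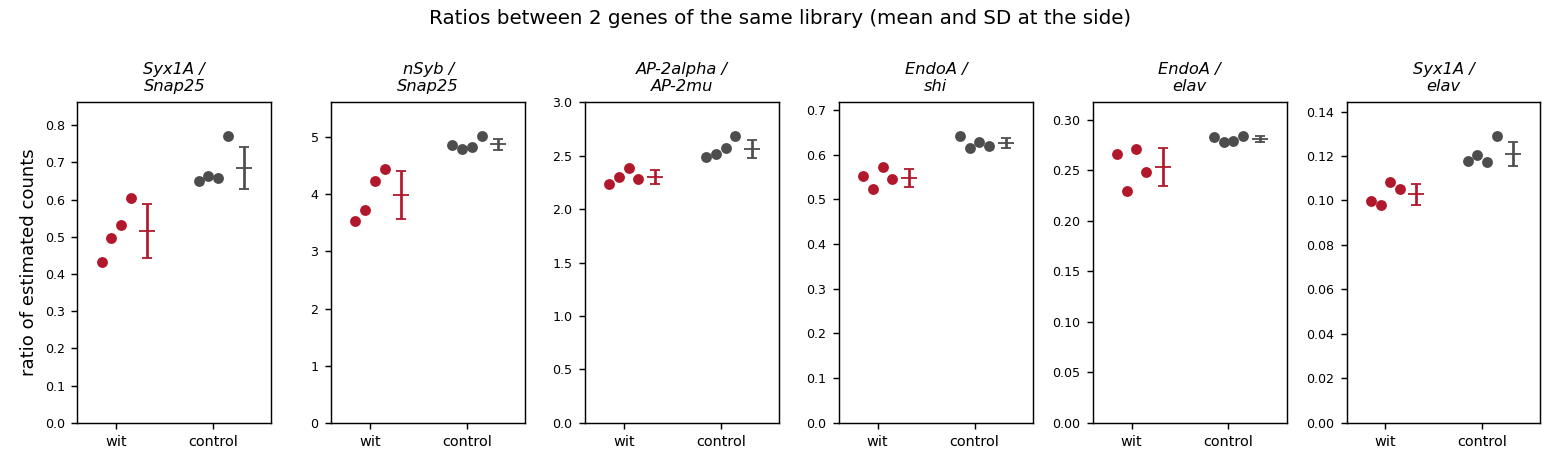
Ratios of estimated counts between 2 genes of the same library for 4 wit mutant and 4 control libraries, with the mean ± SD beside the points and every axis starting at 0. In the pairs drawn, the wit mutant values lie below all control values; for Syx1A over elav they average 0.103 in wit mutants and 0.121 in controls.

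Members that fell lay on chromosome 3 and elsewhere in nearly equal numbers. Of the members on chromosome 3, of which controls carry 1 wild-type copy and wit mutants none, 7 of 18 fell, and on the other chromosomes 8 of 18 fell. The latter count holds both stnA and stnB, on the X chromosome, whose counts were identical. Among all genes tested 8.51% fell and 6.74% rose on chromosome 3, and 8.69% fell and 5.72% rose on the others. Per kilobase of the median annotated transcript, the highest control levels were those of nSyb (444 CPM per kilobase), cpx (309) and Sap47 (258), and the lowest were those of Amph (13.9), spict (12.4) and Syt12 (3.13). Members that fell ranged from nSyb down to the stoned unit at 38.5 CPM per kilobase in controls. Which transcript lengths apply in this tissue is not known, and with the shortest or longest annotated transcript nSyb stood at 898 or 279 CPM per kilobase.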

How the data were processed

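Ventral nerve cord RNA of 4 wit mutant and 4 control libraries was sequenced as 42 bp pairs, per the labels' protocols, which call the libraries biological replicates. The authors deposited estimated counts, 1 value for each gene. The submitters' processing notes name kallisto 0.43.0, the build BDGP6 and DESeq2, with no role for any of them, and how the authors summed transcripts to genes is not stated there. Because 31.36% of values were fractional, counts were rounded first. Symbols came from a table of gene identifiers, and coordinates, transcripts and exon overlaps from Ensembl's annotation of BDGP6. Of 129 entries in the other gene lists, 6 were not analysed here because their identifiers did not match.

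Low genes were removed with filterByExpr (minimum count 10), TMM scaling followed, and the quasi-likelihood test of edgeR 4.0.16 (robust, no covariate) compared the genotypes. Benjamini-Hochberg adjustment ran over all genes tested, with two-sided calls at an adjusted p under 0.05, and intervals are 95% from that fit. R 4.3.3, limma 3.58.1, DESeq2 1.42.0 and matplotlib 3.10.9 were also used, and the test was checked on simulated data. There were 14 alternatives, covering scaling, tool, count filter, the replicate number as a block and each library left out. The members, gene lists and naming rule were chosen with earlier results of these data known. The rule named every member, wit, st and, in each other list, no more than 3 genes by adjusted p. Chosen after their values were seen were brp, Gs2, Gat, sd, fne, elav, repo, VGAT, prt, bsh, eIF4EHP, CG6951 and the gene pairs of the ratios. A depth of 3 counts equals 0.0916 to 0.143 CPM and covers counting error only. Libraries of a genotype differed by more than sampling noise, so each was 1 sample. Promoter and protein sequences were not analysed here.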

Additional observations from a re-analysis of the deposited data

Results flagged for a closer look

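In groups of 4 libraries, 3 member values stood apart from the other 3 by more than Dixon's 95% critical value, out of 72 groups examined, where chance flags about 1 in 20. Syt14 was at 59.4 CPM in wit mutant replicate 4, above the other wit mutant libraries at 54.4 to 55.1 CPM. Snap25 was at 192 CPM in control replicate 4, below the other controls at 208 to 209 CPM. EndoA was at 320 CPM in control replicate 2, below the other controls at 326 to 327 CPM, a gap of little size in a group with a coefficient of variation of 0.988%.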

How the results depend on the processing

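No member changed direction past the threshold under any of 14 alternatives, and Syx1A, nSyb, Sap47, Syngr and EndoA kept their calls in all of them. Leaving out 1 library at a time gave from 6 to 19 members that fell and from 0 to 1 that rose, against 15 and 0. The ranges were 3 to 8 fusion genes that fell and 0 to 1 that rose, 2 to 4 vesicle protein genes that fell and 1 to 7 endocytosis genes that fell. Over all genes these runs gave 304 to 1060 rises and 524 to 1124 falls, against 562 and 795. The median log2 fold change over endocytosis genes ran from -0.081 to -0.050. The replicate numbers did not pair the libraries, since the correlations of same-numbered deviations from the group means were -0.05, 0.04, -0.09 and -0.31. With the replicate block 7 members fell (3 fusion, 2 vesicle protein and 2 endocytosis genes), while 553 of all genes fell and 301 rose. With limma-voom 20 members fell (9 fusion, 4 vesicle protein and 7 endocytosis genes) and 2 rose (1 fusion and 1 endocytosis gene). Of all genes 1133 fell and 1001 rose in that fit. Division by elav, chosen after seeing the data, left 3 members below and 3 above all controls, against 19 and 0 in CPM. Of all genes tested 4.64% lay below and 26.4% above after that division, against 11.7% and 8.82% in CPM. DESeq2 size factors and a filter at 1 CPM in 4 libraries changed no member's call, the DESeq2 Wald test added 2 calls and no count filter lost 2.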
